A study of Bos taurus with 33 samples.

Results

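Amino acid transporters were described here as the genes whose symbol begins with SLC1A, SLC3A, SLC6A, SLC7A, SLC36A, SLC38A or SLC43A followed by a digit, in pools of bovine oocytes and of the cumulus cells (CC) that surrounded them. The rule found 54 genes among the 17543 listed for either cell type, of which 52 were listed for oocytes, 46 for CC and 44 for both. They comprised 53 carriers or carrier chains and SLC7A6OS, a gene on the strand opposite to SLC7A6 that encodes a protein for nuclear import of RNA polymerase II and is no carrier. Each library pooled 4 oocytes, or the CC of the 4 complexes these oocytes were taken from, aspirated from the largest follicle of suckled postpartum Hereford-Angus crossbred cows. All cows received GnRH on day -9 and prostaglandin F2 alpha on day -2. Cows of the small classification (follicle of at most 11.7 mm) and of the large classification (at least 12.7 mm) showed no estrus and received a second dose of GnRH on day 0, whereas cows of the spontaneous classification (11.7 to 14 mm) expressed estrus and received none. Small and large follicles contributed 6 oocyte pools and 6 CC pools each, and spontaneous follicles 4 oocyte pools and 5 CC pools. Complexes were collected about 23 hours after GnRH or estrus according to the protocol, whereas the sample labels state about 20 hours. A pool combined several cows, so single animals cannot be followed, and the spontaneous classification differed from the others in estrus, in GnRH and in follicle size together.

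Carriers of these families move amino acids across the plasma membrane or out of lysosomes. Some are driven by sodium or proton gradients (SLC1A, SLC6A, SLC36A, SLC38A), some are exchangers that trade an amino acid inside the cell for another outside, and the light chains of the SLC7A family need a heavy chain, SLC3A1 or SLC3A2, to reach the membrane. In the growing follicle, cumulus cells are coupled to the oocyte by gap junctions. In mouse complexes they take up certain neutral amino acids that the oocyte imports poorly and pass them on. The carriers on each side of this coupling are therefore of interest in follicle physiology. The study states that the connections to the oocyte are broken at the gonadotropin surge. The complexes here were collected after GnRH or estrus, and coupling was not measured.

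The libraries held 7664375 to 17934916 reads on genes in oocyte pools and 1911600 to 5772431 in CC pools. Values are reads on a gene per 1000000 reads on genes (CPM), which do not correct for gene length, so levels are compared here between pools for a gene, and different genes were ranked by level only to choose which to print. A count of 0 allows up to 3 reads, worth 0.167 to 0.391 CPM in an oocyte pool and 0.520 to 1.57 CPM in a CC pool, and these limits cover counting error only. The sum of the oocyte markers was between 9970 and 13971 CPM in oocyte pools and between 1.57 and 13.7 CPM in CC pools, for which 9 of the 14 were not listed. Cumulus and granulosa markers summed to 13923 to 35471 CPM in CC pools and to 856 to 4588 CPM in oocyte pools. Of these 17 markers, 15 had a lower mean in oocytes, and HAS2 and STAR had a higher mean in oocytes than in CC. Mitochondrially encoded genes took 0.827 to 4.92% of reads in oocyte pools and 12.4 to 42.9% in CC pools. In such pooled samples, fewer cells of a type and less of its RNA per cell cannot be told apart.

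A transcript entered the tests of a cell type when 4 or more oocyte pools, or 5 or more CC pools, held it at 5 CPM or above. This held for 29 transporter genes in oocytes and 23 in CC, of which 18 passed in both, 11 in oocytes only and 5 in CC only. The remaining 20 passed in neither cell type, and their highest value in any pool was 29.4 CPM. Among these 20 genes, SLC6A6, a taurine carrier, had 0 reads in all 16 oocyte pools. SLC7A11, the light chain that exchanges cystine for glutamate, had a median of 3.28 CPM in oocytes and 0.220 CPM in CC. Values of SLC6A6, SLC7A11, SLC7A7, SLC7A9, SLC38A3, SLC38A11 and SLC6A9 were chosen for print after they were seen.

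The comparison of oocytes with CC asked which carriers each cell type held. The deposited values of the cell types were scaled separately, so no test was run across them, and a gene was counted when its pools did not overlap, that is, when its lowest pool in the one cell type exceeded its highest pool in the other. Of 31 genes listed for both cell types and passing the filter in either, 9 were higher in every oocyte pool than in any CC pool, which is 29.0% of the 31 and compares with 22.9% of 11431 genes measured the same way. Another 6 were higher in every CC pool, which is 19.4% and compares with 13.4% of all genes. The remaining 16 overlapped. Genes not listed for CC, such as SLC7A3, were left out of these counts. The oocyte listing held 201 genes with 0 reads in every pool and the CC listing held 0. A gene without reads in CC may therefore be absent from the CC listing. The genes higher in oocytes were SLC1A5, SLC6A4, SLC6A5, SLC6A20, SLC7A2, SLC7A6, SLC7A7, SLC38A8 and SLC38A11, and those higher in CC were SLC3A1, SLC6A14, SLC7A5, SLC38A1, SLC38A2 and SLC43A3. For these 15 the lack of overlap over all pools fixes the direction within the small, the large and the spontaneous classification. Of all 31 genes, these included, 27 had the same direction in all 3 classifications. SLC6A4, SLC6A5, SLC6A20, SLC38A8 and SLC38A11 passed the filter in oocytes only, and SLC3A1, SLC6A14, SLC7A5 and SLC43A3 in CC only. For them the filter favoured the direction found, as it did for any gene counted this way.

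**Figure D1:**
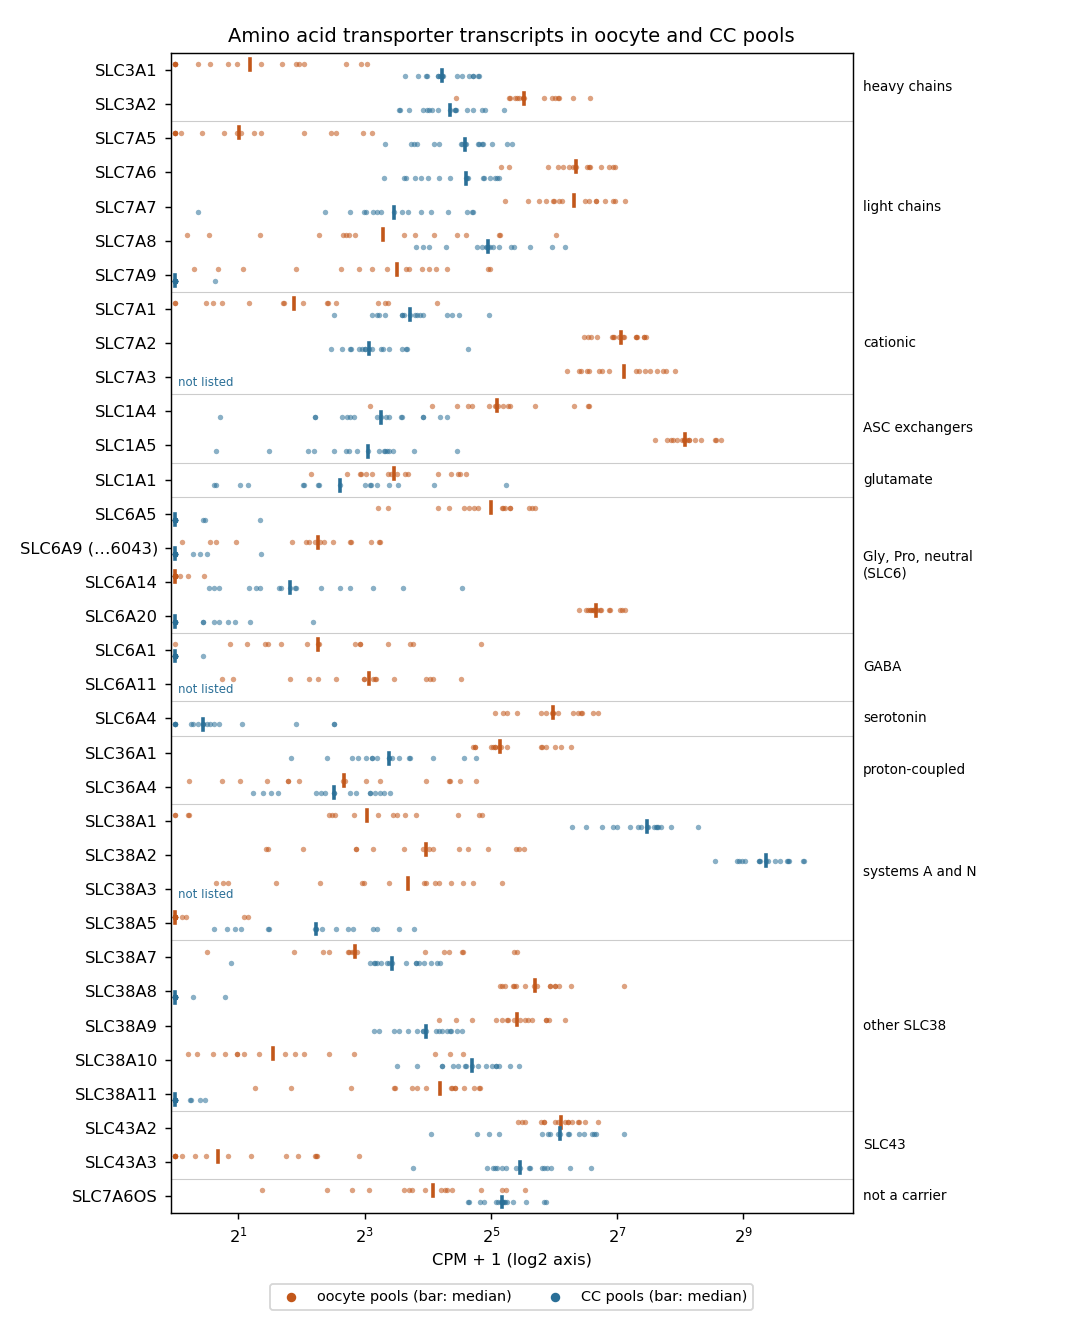
CPM + 1 on a log2 axis for the 34 transporter genes that passed the filter in oocytes or CC, grouped by role; each point is a pool (orange, 16 oocyte pools; blue, 17 CC pools) and bars mark medians. SLC1A5, SLC7A2 and SLC6A20 sit to the right in every oocyte pool and SLC38A1 and SLC38A2 in every CC pool, and SLC7A3, SLC6A11 and SLC38A3 have no CC points because they were not listed for CC.

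Neutral amino acid exchangers of the ASC type differed between the cell types. SLC1A5 (ENSBTAG00000013577), which exchanges alanine, serine, cysteine and glutamine, ranged from 194 to 397 CPM in oocytes (median 270) and from 0.568 to 21.1 CPM in CC (median 7.31). Its mean was 37.6-fold higher in oocytes (282 ± 58.4 CPM, SD, n = 16) than in CC (7.51 ± 4.75 CPM, n = 17). SLC1A4, the other exchanger of this type, overlapped between cell types, with 40.5 ± 25.7 CPM in oocytes and 8.96 ± 4.99 CPM in CC.

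Of the 5 sodium-coupled carriers of systems A and N, named for their preference for alanine-like or nitrogen-rich side chains, the system A carriers SLC38A1 and SLC38A2 were higher in every CC pool. SLC38A2 (ENSBTAG00000011105), a system A carrier of alanine and glutamine, ranged from 373 to 994 CPM in CC (median 655) and from 1.70 to 45.1 CPM in oocytes (median 14.7). The CC mean of 674 ± 178 CPM was 37.5-fold above the oocyte mean of 18 ± 14.8 CPM. SLC38A1, a closely related system A carrier, ranged from 76.7 to 310 CPM in CC (median 176) and from 0 to 28.0 CPM in oocytes (median 7.22), an 18.04-fold difference of the means. The remaining 3 carriers did not share this arrangement: SLC38A5 overlapped and SLC38A4 passed the filter in neither cell type. SLC38A3, a system N carrier of glutamine and histidine, was not listed for CC and had a mean of 12.3 ± 10.1 CPM in oocytes, with pools from 0.568 to 35.1 CPM.

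The plot of differences between oocytes and CC shows how far apart these families lie. Across the 31 genes the mean of log2(CPM + 1) differed by 6.29 in favour of oocytes for SLC6A20 at one end and by -5.61 for SLC38A2 at the other, whereas the median of all genes was 0.15. When mitochondrially encoded genes were left out before scaling, the median of all genes moved to -0.21, and with median-of-ratios scaling to -0.25. The number of genes higher in every oocyte pool was then 8 under either scaling, with SLC7A6 lost, and the number higher in every CC pool stayed at 6. These were counted among 31 genes without mitochondrially encoded genes and among 30 with median-of-ratios scaling. The shares of all genes without overlap were not counted under these scalings, so the counts have no background beside them.

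**Figure D2:**
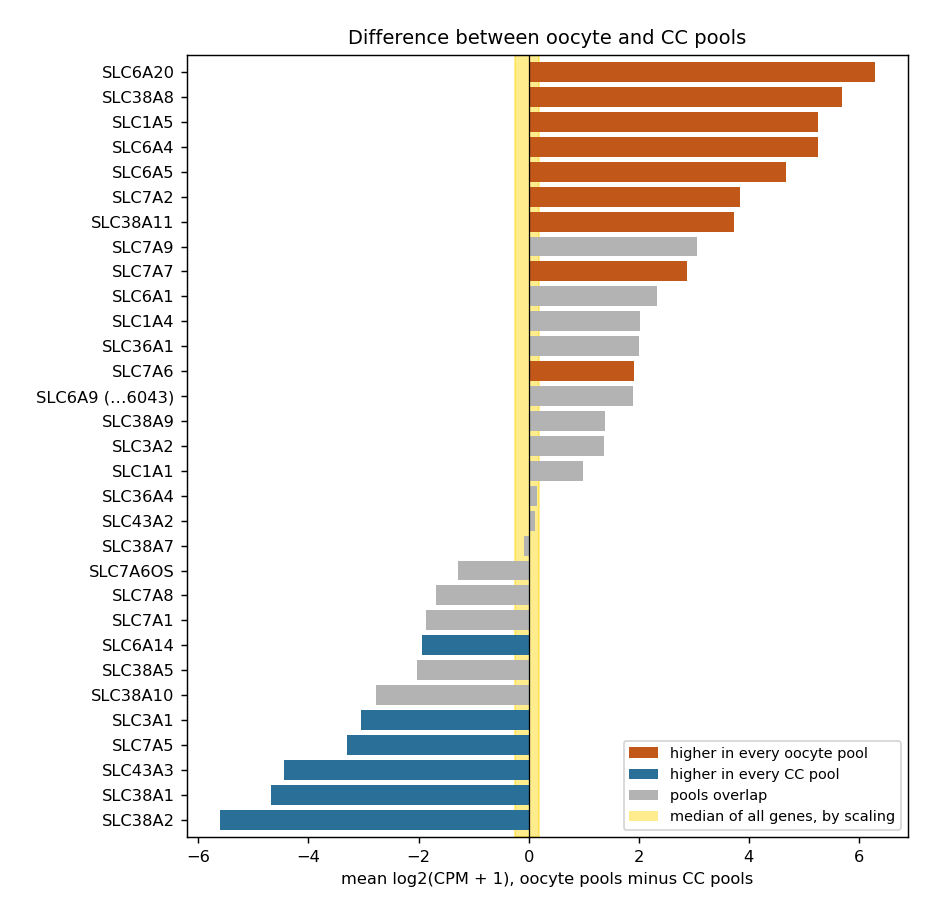
Difference of mean log2(CPM + 1) between 16 oocyte pools and 17 CC pools for 31 transporter genes; orange and blue bars are genes whose pools do not overlap and grey bars overlap. The yellow band runs from -0.25 to 0.19, the range of the median of all genes over the scalings, and the bars of SLC36A4, SLC43A2 and SLC38A7 end within it.

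Heteromeric exchangers differed by chain. The heavy chain SLC3A2, the partner of most SLC7A light chains, had 52.6 ± 18.01 CPM in oocytes (20.7 to 93.5) and 19.6 ± 6.97 CPM in CC (10.7 to 35.8), and its pools overlapped. The heavy chain SLC3A1, which forms the renal carrier of cystine and dibasic amino acids with SLC7A9, was instead higher in every CC pool, with 19.4 ± 4.88 CPM in CC (11.5 to 26.9) and 2.15 ± 2.41 CPM in oocytes (0 to 7.19). Its textbook partner SLC7A9 had the reverse distribution, with 11.4 ± 9.37 CPM in oocytes (0.228 to 30.6) and reads in 1 of 17 CC pools. In the annotation of the cattle assembly ARS-UCD2.0 the gene SLC3A1 overlaps PREPL and SLC7A9 overlaps TDRD12, and the library kit does not mark strand, so reads of such pairs cannot be told apart where they overlap.

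Among the light chains, those that carry cationic amino acids in exchange for neutral ones and those that carry large neutral amino acids were arranged differently. SLC7A6 was higher in every oocyte pool (34.7 to 125 CPM, median 80.3) than in any CC pool (8.89 to 34.1 CPM, median 23.4), a 3.82-fold difference of the means, but its lowest oocyte pool and its highest CC pool nearly met and the pools overlapped under both other scalings named above. SLC7A7 of the same group was also higher in every oocyte pool, with means of 83.3 ± 30.6 and 12.0 ± 7.43 CPM. SLC7A5, the light chain for leucine and other large neutral amino acids, was higher in every CC pool, with 22.9 ± 8.70 CPM in CC (8.98 to 39.2) and 2.06 ± 2.55 CPM in oocytes (0 to 7.64), an 11.1-fold difference. SLC7A8, a light chain for neutral amino acids of all sizes, had 32.9 ± 15.7 CPM in CC and 15.4 ± 17.1 CPM in oocytes and overlapped. SLC7A6OS overlaps SLC7A6 in that annotation and had the opposite order of means, with 18.1 ± 12.5 CPM in oocytes and 36.5 ± 9.42 CPM in CC, and its pools overlapped between cell types.

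Carriers dedicated to cationic amino acids such as arginine and lysine followed the oocyte. SLC7A2 ranged from 88.2 to 175 CPM in oocytes (median 132) and from 4.54 to 23.9 CPM in CC (median 7.38), a 15.2-fold difference of the means. SLC7A3 ranged from 72.8 to 240 CPM in oocytes (median 136) and was not listed for CC. SLC7A1, the widely expressed member of this group, had 13.4 ± 6.23 CPM in CC and 4.21 ± 4.60 CPM in oocytes and overlapped, so the arrangement did not extend to every cationic carrier.

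Of the SLC6A family of sodium- and chloride-coupled carriers, 3 genes were higher in every oocyte pool and 1 in every CC pool. SLC6A20, a carrier of proline and related imino acids, ranged from 83.5 to 138 CPM in oocytes (median 100) and from 0 to 3.55 CPM in CC, with reads in 8 of 17 CC pools. SLC6A5, a glycine carrier known from inhibitory neurons, ranged from 8.23 to 50.7 CPM in oocytes (median 31.0) and had reads in 3 CC pools, at up to 1.53 CPM. SLC6A4, the serotonin transporter, which belongs to this family by sequence although its substrate is a monoamine, ranged from 32.3 to 103 CPM in oocytes (median 62.1) and from 0 to 4.74 CPM in CC. In each of these genes the lowest oocyte pool lay well above the highest CC pool. SLC6A11, a GABA carrier, had 8.22 ± 6.04 CPM in oocytes and was not listed for CC. The symbol SLC6A9, a glycine carrier, was given to ENSBTAG00000006043 for CC and to ENSBTAG00000008690 for oocytes, and these were kept apart. The former had 3.98 ± 2.72 CPM in oocytes and reads in 4 CC pools. The latter had 0.564 ± 1.15 CPM in oocytes, 2.57 ± 1.83 CPM in CC and reads in all 17 CC pools. In the cattle annotation named above SLC6A9 overlaps CCDC24 and KLF17, so reads cannot be told apart where these genes overlap. SLC6A14, a carrier of neutral and cationic amino acids, was the SLC6A gene higher in every CC pool, but at 0.452 to 22.2 CPM (median 2.54) against reads in 3 of 16 oocyte pools at up to 0.369 CPM, so its lowest CC pools lay at the limit that a count of 0 allows.

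Among the remaining SLC38A genes, SLC38A8, a sodium-coupled carrier of glutamine and other amino acids, ranged from 34.4 to 137 CPM in oocytes (median 51.2) and had 5 reads in all 17 CC pools together. In the annotation used for names this gene overlaps NECAB2. SLC38A10, a family member found in intracellular membranes, had the higher mean in CC (25.8 ± 8.78 CPM against 5.21 ± 7.34 CPM) but overlapped. SLC36A1, a proton-coupled carrier of glycine, alanine and proline in lysosomes and at the cell surface, had 42.9 ± 16.8 CPM in oocytes and 10.5 ± 6.14 CPM in CC and overlapped. SLC1A1, a sodium-coupled carrier of glutamate, aspartate and cysteine, also overlapped, with 12.0 ± 6.43 and 7.38 ± 8.61 CPM. In the same annotation SLC36A1 overlaps FAT2 and SLC1A1 overlaps SPATA6L.

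The SLC43A genes were unlike each other. SLC43A2, a carrier of large neutral amino acids that needs no heavy chain, had near-equal means of 67.5 ± 17.1 CPM in oocytes and 68.6 ± 31.3 CPM in CC. The sign of its small log2 difference depended on the scaling, being 0.11 as deposited and -0.26 with median-of-ratios scaling. SLC43A3, which groups with SLC43A2 by sequence but is known as a carrier of purine nucleobases, ranged from 12.6 to 95 CPM in CC (median 43) and from 0 to 6.53 CPM in oocytes (median 0.592), a 29.1-fold difference of the means.

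Oocyte pools also held reads of cumulus and granulosa markers. Where a marker had the lower mean in oocytes, this mean was 1.36 to 23.2% of the CC mean, and the median over all 17 markers was 5.14%. The transporters higher in every CC pool stood at 0.825% for SLC6A14, 2.67% for SLC38A2, 3.44% for SLC43A3, 5.54% for SLC38A1, 9.005% for SLC7A5 and 11.1% for SLC3A1 of their CC means, which is within or below the range of those 15 markers. In the other direction, the 5 oocyte markers listed for CC had CC means of 0.00277 to 4.84% of their oocyte means. Of the 9 transporters higher in every oocyte pool, SLC6A5, SLC6A20, SLC38A8 and SLC38A11 stood at 0.0974 to 0.466% of their oocyte means, SLC6A4 at 1.51% and SLC1A5 at 2.66%. SLC7A2 at 6.59%, SLC7A7 at 14.4% and SLC7A6 at 26.1% were above the range of those markers. The part of carried-over RNA in the low values of either cell type was not tested.

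**Figure D3:**
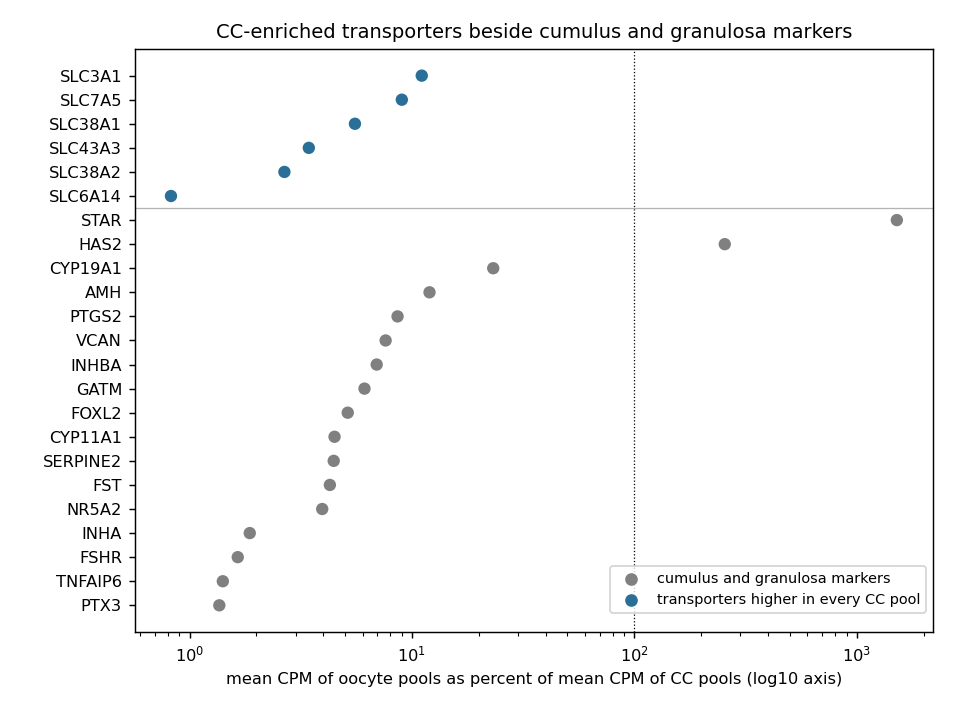
Mean CPM of 16 oocyte pools as a percent of the mean CPM of 17 CC pools, on a log10 axis, for 17 cumulus and granulosa markers (grey) and the 6 transporters higher in every CC pool (blue). The transporters lie between 0.825 and 11.1%, and HAS2 and STAR lie above 100%, marked by the dotted line.

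The comparisons of follicle classifications asked whether transporter transcripts differed with the maturity of the follicle. Each pair of classifications was tested with limma on log2(CPM + 1) across all transcripts that passed the filter. A nominal p of 0.01 or less was called. The study required that threshold in both edgeR and DESeq2, so a limma call alone is a different rule. With both required here, the calls were SLC1A4 in small against large oocytes and SLC38A1 in small against spontaneous CC. In oocytes, small against large follicles gave 1 call among 29 transporter genes (0.655% of all 10076 transcripts were called), small against spontaneous gave 0 (0.774% of all transcripts) and large against spontaneous 0 (0.943%). In CC, small against large gave 1 call among 23 (0.813% of all 9712 transcripts), small against spontaneous 3 (2.38%) and large against spontaneous 0 (1.66%). Among these 3 was SLC38A5, which had no small pool at 5 CPM and so passed the filter through the other classifications. None of the calls in oocytes or CC had a Benjamini-Hochberg adjusted p under 0.05 over all transcripts. Where limma gave 0 calls, 1 gene had an unadjusted p under 0.05 in each comparison, and edgeR's quasi-likelihood test and DESeq2 on recovered reads gave 0 calls too. The median log2 difference of the 29 genes in oocytes was 0.04 (small to large), -0.07 (small to spontaneous) and -0.14 (large to spontaneous), and that of all transcripts 0.05, 0.05 and 0.01. In CC the medians over 23 genes were 0.13, 0.26 and 0.17, against 0.05, 0.16 and 0.11.

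In oocytes the exchanger SLC1A4 (ENSBTAG00000007763) was lower in large than in small follicles. The 6 small pools ranged from 32.5 to 92.9 CPM with a median of 58.5, and the 6 large pools from 7.44 to 37.5 CPM with a median of 27.7. Small replicates 1, 5 and 6 lay at 78.6 CPM or more and the other small pools at 38.3 CPM or less, so the classifications overlapped. Its mean fell from 61.2 ± 29.7 to 26.3 ± 10.5 CPM, a log2 difference of -1.18 (SE 0.39, limma p = 0.00477, adjusted p = 0.997, exact two-sided permutation p = 0.0173). Without small replicate 3, taken to be the library that the study left out in a second analysis, the log2 difference was -1.33 and the call held. The call was lost without the filter on low values and without small replicate 1, 5 or 6 or large replicate 6, and leaving out each pool in turn gave differences from -1.33 to -0.87, the smallest without large replicate 6. The 4 spontaneous pools had 15.7, 35.6, 21.1 and 51.1 CPM, and the difference from small did not pass (log2 difference -0.95, limma p = 0.0305, adjusted p = 0.987, exact permutation p = 0.133). In CC the mean of SLC1A4 was higher in spontaneous than in small follicles, at 13.1 ± 4.57 and 6.49 ± 5.10 CPM, and this did not pass either (1.19, limma p = 0.0224, adjusted p = 0.509, exact permutation p = 0.0519).

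The 9 transporters higher in every oocyte pool gave 27 log2 differences between classifications, of which 0 were called and 23 were smaller than 0.5. The others were those of SLC38A11 from small (-1.04) and from large (-1.18) to spontaneous, of SLC7A6 (-0.57) and SLC7A7 (0.51) from large to spontaneous, with standard errors of 0.69, 0.64, 0.32 and 0.28. Over all transcripts 0.655 to 0.943% were called in these comparisons, and the share of differences smaller than 0.5 was not counted. The 9 genes had been picked for high values in every oocyte pool, which favours small differences, so no particular stability is read from them. SLC1A5 had means of 278 ± 62.7, 279 ± 52.8 and 292 ± 75.3 CPM in small, large and spontaneous oocyte pools, and the log2 difference between small and large was 0.01 (SE 0.16). SLC6A20 had 103 ± 18.2, 110 ± 19.9 and 105 ± 9.996 CPM. SLC7A3, not listed for CC, had 134 ± 44.9, 151 ± 65.5 and 145 ± 67.8 CPM. These differences of SLC1A5, SLC6A20 and SLC7A3 were smaller than the spread between pools. SLC1A1 had the smallest p between large and spontaneous oocytes, with 17.5 ± 6.47 and 7.26 ± 2.89 CPM (log2 difference -1.14, SE 0.55, limma p = 0.0481, adjusted p = 0.968, exact permutation p = 0.0381), which did not pass. Over the 29 genes the log2 differences in oocytes ran from -1.42 to 1.44 across the 3 comparisons, with standard errors from 0.16 to 0.94.

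**Figure D4:**
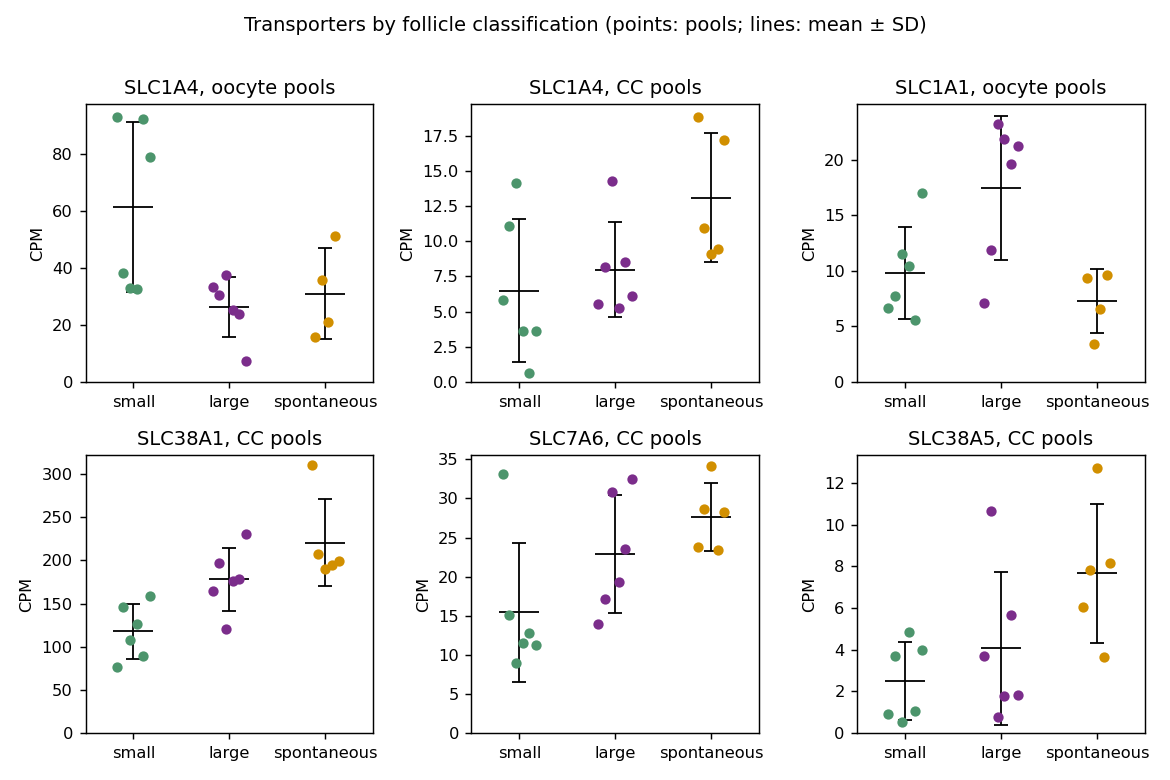
CPM by follicle classification for SLC1A4 and SLC1A1 in oocyte pools and for SLC1A4, SLC38A1, SLC7A6 and SLC38A5 in CC pools; points are pools and lines are the mean ± SD (n = 6, 6 and 4 oocyte pools, 6, 6 and 5 CC pools). SLC38A1 in CC is the panel in which the spontaneous pools, from 191 CPM upward, lie above every small pool, of which the highest is 159 CPM.

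In CC the system A carrier SLC38A1 (ENSBTAG00000000859) was higher in spontaneous than in small follicles. The small pools ranged from 76.7 to 159 CPM with a median of 117, and the 5 spontaneous pools had 310, 207, 191, 195 and 200 CPM. Every spontaneous pool was above every small pool. The share of all transcripts without overlap in this comparison was not counted, so no weight is placed on this separation. The mean rose from 118 ± 32.3 to 220 ± 50.5 CPM, a log2 difference of 0.92 (SE 0.21, limma p = 0.000346, adjusted p = 0.191, exact two-sided permutation p = 0.00433). The call held without each of the 11 pools in turn, with differences from 0.79 to 1.02, and with edgeR and DESeq2. The large pools ranged from 121 to 231 CPM with a median of 177 and overlapped both neighbours. Their mean of 178 ± 36.5 CPM was above that of small pools by 0.61 on the log2 scale (SE 0.21, limma p = 0.00812, adjusted p = 0.999, exact permutation p = 0.0173). That call was lost in edgeR and in DESeq2 (log2 difference 0.54 in each), with median-of-ratios scaling (0.56), without the filter, without mitochondrially encoded genes (0.51) and without small replicate 1, 3 or 5 or large replicate 1, 2, 4, 5 or 6, the differences being 0.50 to 0.72 over all pools left out. SLC38A2, the related carrier, had 630 ± 185, 679 ± 167 and 723 ± 209 CPM in small, large and spontaneous CC and did not pass.

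The other calls in CC were also between small and spontaneous follicles. SLC7A6 (ENSBTAG00000012112) had 33.1, 15.1, 8.89, 11.5, 12.8 and 11.3 CPM in the small pools and 23.8, 28.7, 34.1, 23.4 and 28.2 CPM in the spontaneous pools. Small replicate 1 lay within the spontaneous range and the other small pools lay below it. The mean rose from 15.5 ± 8.89 to 27.7 ± 4.36 CPM, a log2 difference of 0.92 (SE 0.29, limma p = 0.00549, adjusted p = 0.390, exact permutation p = 0.0260). The call was lost in edgeR (log2 difference 0.72), in DESeq2 (0.71), without mitochondrially encoded genes (0.77) and without small replicate 3, 4, 5 or 6 or spontaneous replicate 2, 3 or 5, the differences being 0.80 to 1.15 over all pools left out. SLC7A6OS, which overlaps SLC7A6, had 33.5 ± 7.57 and 44.4 ± 11.4 CPM in the same classifications and did not pass (log2 difference 0.39, SE 0.22).

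SLC38A5 (ENSBTAG00000011854), a system N carrier of glutamine and serine, was the remaining call. It had 0.920, 3.69, 0.523, 4.86, 1.07 and 3.98 CPM in small pools and 6.06, 7.80, 12.7, 3.63 and 8.16 CPM in spontaneous pools, so spontaneous replicate 4 lay among the small pools. The mean rose from 2.51 ± 1.88 to 7.67 ± 3.34 CPM, a log2 difference of 1.41 (SE 0.45, limma p = 0.00624, adjusted p = 0.390, exact permutation p = 0.0173). No small pool reached 5 CPM, so the gene passed the filter through the other classifications and had to differ in that sense. The call was lost in edgeR (log2 difference 1.47), with the 3 classifications in the same fit and without small replicate 1, 3 or 5 or spontaneous replicate 1, 2, 3 or 5, the differences being 1.21 to 1.62 over all pools left out. It held in DESeq2.

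**Figure D5:**
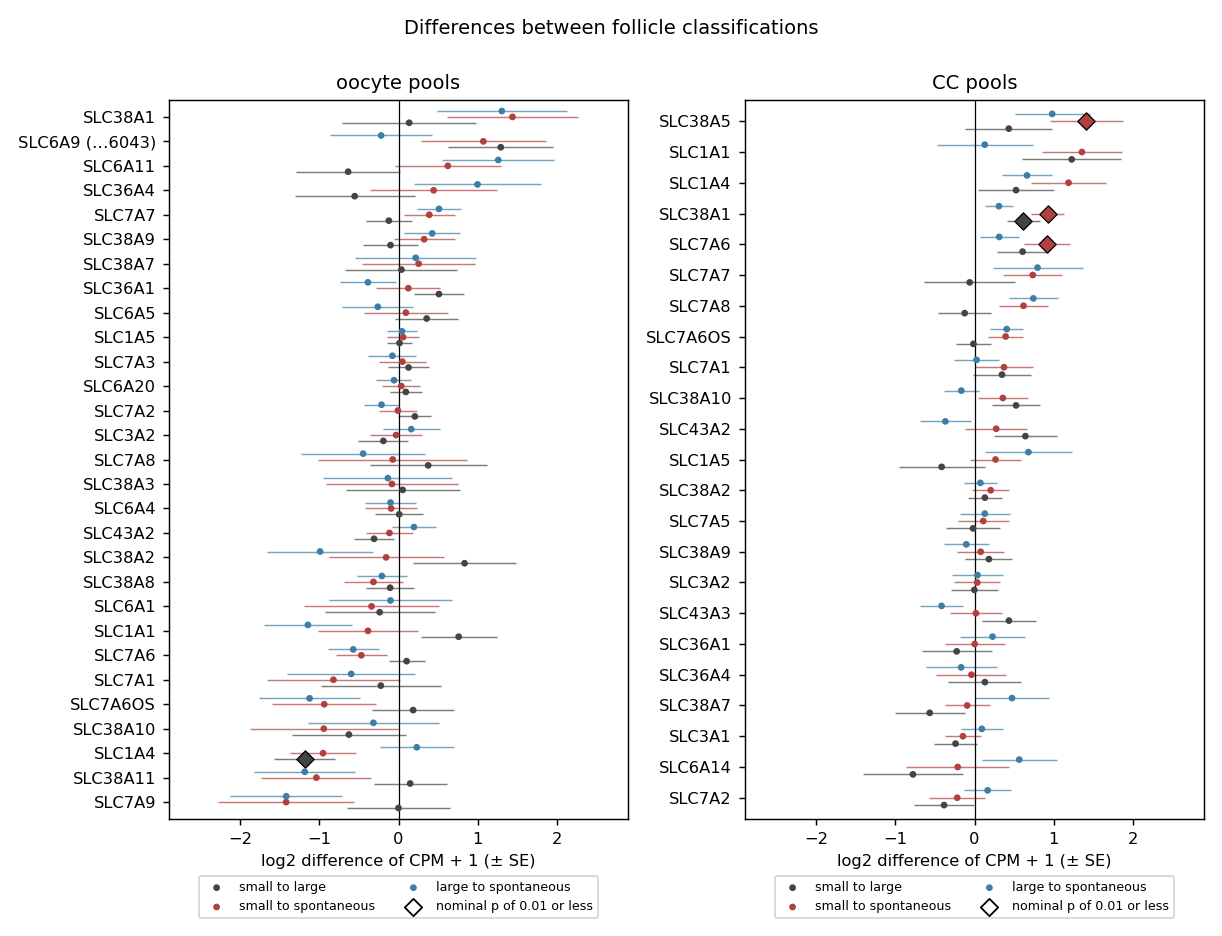
Log2 differences of CPM + 1 (± SE, limma) of 29 transporter genes in oocyte pools and 23 in CC pools for small to large (grey), small to spontaneous (red) and large to spontaneous (blue) follicles; a positive value is higher in the classification named last. Diamonds mark the 5 calls, which are SLC1A4 in oocytes and SLC38A1 (2 comparisons), SLC7A6 and SLC38A5 in CC.

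Of the 23 genes in CC, 18 had the higher mean of log2(CPM + 1) in spontaneous than in small pools, where the median of all transcripts was 0.16. This tally was 13 of 22 with median-of-ratios scaling, 13 of 23 without mitochondrially encoded genes and 12 of 23 in edgeR or DESeq2, where the median of all transcripts was 0.01, 0.00292, -0.02 and -0.03. Other measures differed between these classifications too. The share of mitochondrially encoded reads had a median of 22.9% in small, 21.0% in large and 15.3% in spontaneous CC pools, with ranges of 12.4 to 42.9%, 14.1 to 27.5% and 14.0 to 21.6%. The 17 cumulus and granulosa markers summed to 13923 to 27349 CPM in small and to 20764 to 32974 CPM in spontaneous pools. The theca list, with 7 of 8 genes listed, summed to 288 to 1238 CPM and to 631 to 2787 CPM. White blood cell markers summed to 55.8 to 285 CPM and to 64.4 to 367 CPM. The part of these measures in the transporter differences was not tested. SLC7A8 had the smallest p between large and spontaneous CC, with 26.7 ± 10.6 and 44.1 ± 16.7 CPM (log2 difference 0.74, limma p = 0.0264, adjusted p = 0.640, exact permutation p = 0.0649), which did not pass. SLC3A2, the heavy chain, had 19.0 ± 5.01, 19.7 ± 8.73 and 20.2 ± 8.16 CPM in small, large and spontaneous CC, and SLC7A5 had 22.7 ± 9.43, 22.5 ± 10.7 and 23.6 ± 6.79 CPM.

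Genes that sense amino acids or work beside these carriers were read from the same fits. The lists comprised 16 genes of the amino acid response of GCN2 and ATF4, 33 of amino acid sensing by mTORC1, 12 of glutathione synthesis, 23 other amino acid carriers and 11 partners of the transporters. Calls were 2 of 66 tested between small and large oocytes (0.655% over all transcripts), 2 of 61 between small and spontaneous CC (2.38%) and 0 in the other 4 comparisons. TSC2, an inhibitor of mTORC1, fell from 132 ± 43.4 CPM in small to 78.1 ± 21.7 CPM in large oocytes (log2 difference -0.73, adjusted p = 0.997). SFXN1, a mitochondrial serine carrier, rose from 0.559 ± 0.558 to 5.64 ± 3.48 CPM in the same comparison (log2 difference 1.96, adjusted p = 0.997), but no small pool reached 5 CPM, so it passed the filter through the other classifications. SLC25A13, the mitochondrial aspartate-glutamate carrier, rose from 12.9 ± 4.79 CPM in small to 25.5 ± 6.45 CPM in spontaneous CC (log2 difference 0.96, adjusted p = 0.346). BSG, a chaperone of membrane carriers, rose from 258 ± 49.8 to 359 ± 24.6 CPM there (log2 difference 0.50, adjusted p = 0.404), a call that was lost without mitochondrially encoded genes (0.33). No gene of the amino acid response was called, among 12 tested in oocytes and 11 in CC.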

How the data were processed

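Single-end sequencing of amplified cDNA from pools was processed by the authors: reads were trimmed with fqtrim, aligned to UMD3.1 with Hisat2 and assigned to Ensembl genes with featureCounts. The library kit does not mark strand. The deposited values are CPM, the authors' reads on a gene per 1000000 reads on genes. Symbols came from the tables, and SLC7A5 was labelled LAT for oocytes and matched by identifier. Overlapping genes were taken from the RefSeq annotation of ARS-UCD2.0, by name only. No sequence or coordinate of the authors' build was used here.

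Whole reads were recovered for 100% of values (tolerance 0.1 read). Transcripts at 5 CPM or more in 4 oocyte or 5 CC pools, or in more pools, were tested by limma 3.58.1 (R 4.3.3) with a mean-variance trend on log2(CPM + 1), so fold changes of low genes are understated. Calls used a nominal p of 0.01 or less, and in comparisons with small oocytes also had to pass without replicate 3. Named genes got an exact permutation test of mean CPM. edgeR 4.0.16 and DESeq2 1.42.0 on recovered reads, other pseudocounts (0.1), filters and scalings, a replicate block and leaving out each pool were alternatives. Every pair of pools within a group differed by more than sampling noise. By the study's description the largest follicle of each cow was aspirated, so pools of a cell type would hold different cows. The p-values measure the spread between pools. The limma test was run on simulated data with the same dispersion for every gene. The spread between pools differed from gene to gene here, so that check gives no error rate for these data.

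Genes chosen for printed values were those called, the highest of each role list in each cell type, the 6 largest differences between cell types in each direction and the smallest p of each comparison. The genes and lists were chosen with earlier results of these data known.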

Additional observations from a re-analysis of the deposited data

Results flagged for a closer look

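The rule for printed values picked 25 transporter genes, without those added after their values were seen. In these, 117 sets of 4 to 6 pools of 1 classification were examined for a pool far from the others. By Dixon's criterion on CPM, 17 sets had such a pool, each time the highest of its set. The rate of about 1 in 20 that chance gives holds for normally distributed values. CPM were not shown to be such, so no excess over chance is read from this. In oocytes, small replicate 6 stood apart for SLC1A5 (397 CPM, others 219 to 280), SLC38A8 (137 CPM, others 35.0 to 66.9) and SLC36A1 (63.8 CPM, others 25.9 to 37.1). Large replicate 6 stood apart for SLC38A1 (28.0 CPM, others up to 10.4) and SLC7A1 (16.7 CPM, others up to 4.85). Small replicate 4 stood apart for SLC7A8 (64.5 CPM, others up to 23.2), spontaneous replicate 1 for SLC38A10 (19.4 CPM, others up to 0.725) and spontaneous replicate 4 for SLC6A11 (22.02 CPM, others up to 10.01).

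In CC, spontaneous replicate 1 stood apart for SLC38A1 (310 CPM, others 191 to 207) and SLC38A10 (38.4 CPM, others 21.3 to 24.9). Small replicate 1 stood apart for SLC7A6 (33.1 CPM, others 8.89 to 15.1) and SLC7A8 (61.3 CPM, others 15.2 to 29.9). Small replicate 6 stood apart for SLC7A1 (30.3 CPM, others 4.71 to 11.4) and SLC7A2 (23.9 CPM, others 5.23 to 11.8), and small replicate 4 for SLC36A1 (26.1 CPM, others 4.28 to 9.85). Large replicate 2 stood apart for SLC1A1 (36.7 CPM, others up to 9.50) and large replicate 3 for SLC1A4 (14.3 CPM, others 5.27 to 8.52). Without spontaneous replicate 1 the difference of SLC38A1 between small and spontaneous CC was 0.79 on the log2 scale, and without small replicate 1 that of SLC7A6 was 1.15.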

How the results depend on the processing

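Without the filter on low values, oocyte small against large and CC small against large each gave 0 calls among transporter genes. CC small against large also gave 0 calls with median-of-ratios scaling, without mitochondrially encoded genes, in edgeR and with calls required in both edgeR and DESeq2, whereas DESeq2 alone called SLC1A1. CC small against spontaneous gave 1 call, SLC38A1, in edgeR and with both tools required. With each pool left out in turn there were 0 to 1 calls in oocyte small against large, oocyte large against spontaneous, CC small against large and CC large against spontaneous, and 1 to 4 in CC small against spontaneous. The added calls were SLC38A2 without large replicate 2 and SLC7A6 without spontaneous replicate 2 (oocyte large against spontaneous), SLC38A5 without large replicate 2 (CC large against spontaneous), SLC1A1 without large replicate 5 (CC small against large), and SLC1A1, SLC1A4, SLC7A7 or SLC7A8 without small replicate 4, 3, 4 or 1 in CC small against spontaneous, SLC1A1 also without spontaneous replicate 2. Of the calls, SLC38A1 between small and spontaneous CC was kept in 20 of 20 alternatives, SLC1A4 in 16 of 21, SLC38A5 in 10 of 20, SLC7A6 in 8 of 20 and SLC38A1 between small and large CC in 7 of 21; the cause was not tested. SLC43A2, oocyte minus CC, turned from 0.11 to -0.21 without mitochondrially encoded genes and to -0.26 with median-of-ratios scaling. The small difference of SLC36A4 changed sign in the same way under both scalings.

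Deviations from the group mean of each transcript were correlated between pools of different classifications with the same replicate number. These correlations were -0.19 to 0.22 and no comparison had every pair over 0.1, so the numbers were not taken to pair pools. A replicate block gave 1, 0 and 0 calls in oocytes and 1, 2 and 0 in CC, with SLC7A6 (0.86) lost. In CC, 3 reads are worth up to 1.57 CPM, so low carriers there could be missed.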
